A study of Mus musculus with 8 samples.

Results

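The peaks described here are the promoter peaks of Pol II pSer5 whose centre lay upstream of the transcription start site (TSS) of their gene, in lung smooth muscle cells (SMCs) with and without *Tet3*. They were taken from the table of unified ChIP–seq peaks as the rows with an assigned gene and a centre within 5000 nt of its TSS, and were kept if the strand-aware distance from TSS to centre was below 0. This left 534 peaks, which were 47.5% of the 1125 promoter peaks and 30.3% of all 1761 peaks. Each belonged to a different gene, so 534 genes were represented, of which 516 are protein-coding genes. The rule used only coordinates and no signal. The table itself holds peaks called from the signal of the samples, then unified and recounted. A weak peak may therefore have entered it through the genotype where it was high. The TSS of the table is the outermost annotated start of the gene, and individual transcripts may start further inside.

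Ctrl cells (2 libraries, titled WT) came from mice without the floxed *Tet3* allele. The paper describes its controls in general as carrying the Cre allele, the tdTomato reporter or both. Sorting of tdTomato-positive cells requires both. Tet3smKO:T cells (2 libraries, titled Mut) came from mice in which a tamoxifen-inducible Cre under the α-SMA promoter deleted *Tet3* and switched on the tdTomato reporter. All mice were adult C57BL/6 mice given tamoxifen, and tdTomato-positive lung SMCs were sorted by FACS after depletion of blood cells, so that cells in which the α-SMA promoter was not active at the time of tamoxifen were not sampled. Cells of both genotypes were treated in the cold with 100 µmol DRB for 1 h before ChIP. How far DRB acts at that temperature was not tested here. The age at harvest was not given in the sources used here.

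As Pol II initiates at the TSS, the kinase of TFIIH phosphorylates its C-terminal domain at serine 5. Pol II then pauses a short distance downstream until P-TEFb releases it into elongation. DRB inhibits P-TEFb, so polymerase stays near its site of initiation. Many mammalian promoters within CpG islands start transcription in both directions, with an upstream antisense polymerase that in some cases makes the RNA of a neighboring gene, and ChIP–seq does not tell the strands apart. A peak centred upstream of an annotated TSS can therefore hold polymerase of either strand.

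None of 30 marker genes checked (12 of SMCs and 18 of endothelial, epithelial, blood and fibroblast cells) had a peak of any kind in the table, so the cell type could not be read from these peaks. *Tet3* had no peak either, and its deletion could not be checked here. The deposited values are normalized read numbers rounded to whole numbers. Estimated from the steps in these values, the 4 libraries held between 21646 and 37207 reads in all peaks, and between 7114 and 12251 in the upstream peaks. The estimate takes each value as a whole number of reads times a factor for its library. The paper's methods subtract input before normalization, and the effect of this on the steps was not tested. The read numbers, and what is derived from them, are therefore approximate. At the median upstream value of 14 or 15 per library, counting noise is a large part of the spread of a single peak. The chi-square statistic per degree of freedom over the upstream peaks, which is 1 for pure counting noise, was 1.23 between the Ctrl libraries, 1.22 between the Tet3smKO:T libraries, and from 1.20 to 1.37 for pairs of unlike genotype. The study's methods speak of biological replicates for its quantitative analyses in general, and the labels do not tie the libraries to animals, so p-values measure the spread between these libraries, which may be partly technical.

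The sequences that underlie the results are shown first, on the gene strand and on GRCm38, with motif matches in capitals. Coordinates of peaks are given as the table has them. The first set is the part of the peak before the annotated start, at most 300 nt around the centre, for 3 of the 4 highest upstream peaks outside the repeated locus described next. *Mapkapk5* encodes a kinase activated by p38 MAPK, *Ppp1r12a* the targeting subunit of myosin phosphatase, and *Nfat5* the transcription factor of the osmotic stress response. The capitals mark NRF1 (GCGCATGCG) and GC box (GGGCGG) matches on either strand. The NRF1 match of *Mapkapk5* and the GC boxes of *Ppp1r12a* lie outside the window and are not in the shares.
Mapkapk5 (chr5:121545906-121546078, minus strand): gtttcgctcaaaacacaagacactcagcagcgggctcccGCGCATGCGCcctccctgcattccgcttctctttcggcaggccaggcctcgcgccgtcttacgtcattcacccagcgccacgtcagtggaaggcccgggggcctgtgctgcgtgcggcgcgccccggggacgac
Ppp1r12a (chr10:108161866-108162165, plus strand): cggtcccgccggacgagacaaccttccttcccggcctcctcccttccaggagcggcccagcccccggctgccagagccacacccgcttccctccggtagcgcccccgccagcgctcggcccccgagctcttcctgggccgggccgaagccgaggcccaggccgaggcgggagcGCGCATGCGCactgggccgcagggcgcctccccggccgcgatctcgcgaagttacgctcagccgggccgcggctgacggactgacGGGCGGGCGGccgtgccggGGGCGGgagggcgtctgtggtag
Nfat5 (chr8:107293226-107293469, plus strand): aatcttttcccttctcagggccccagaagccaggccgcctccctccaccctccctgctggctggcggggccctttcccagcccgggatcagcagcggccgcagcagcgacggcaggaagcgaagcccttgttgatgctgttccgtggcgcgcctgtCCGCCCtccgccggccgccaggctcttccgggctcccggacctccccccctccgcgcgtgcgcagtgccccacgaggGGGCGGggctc

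The second set shows why the 3 highest values of all upstream peaks need care. They belong to noncoding or predicted genes of a repeated locus on chromosome 8. The aligned parts of the peaks were 97.4% (227 of 233 bases), 98.2% (220 of 224) and 98.2% (214 of 218) identical between pairs, and each carries the same CCAAT motif on the reverse strand (ATTGG), in 2 of the 3 printed parts joined to a GC box.
Gm10060 (chr8:19784530-19784745, plus strand): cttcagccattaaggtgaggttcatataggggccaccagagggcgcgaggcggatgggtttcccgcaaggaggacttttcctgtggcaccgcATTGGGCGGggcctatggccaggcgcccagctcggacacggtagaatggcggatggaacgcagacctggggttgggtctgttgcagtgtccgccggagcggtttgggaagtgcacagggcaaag
2610005L07Rik (chr8:20424815-20424978, minus strand): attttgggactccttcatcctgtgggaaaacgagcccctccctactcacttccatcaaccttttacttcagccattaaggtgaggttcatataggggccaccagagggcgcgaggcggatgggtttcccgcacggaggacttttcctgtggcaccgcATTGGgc
Gm21769 (chr8:20122174-20122383, plus strand): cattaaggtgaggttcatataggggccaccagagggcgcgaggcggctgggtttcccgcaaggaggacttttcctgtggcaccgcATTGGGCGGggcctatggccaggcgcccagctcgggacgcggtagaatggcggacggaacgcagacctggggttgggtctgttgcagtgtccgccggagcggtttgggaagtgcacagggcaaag

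The third set belongs to peaks whose genotypes did not overlap. For *Birc2*, which encodes a ubiquitin ligase that inhibits apoptosis, the part of the peak before the start is shown, with a CRE match (TGACGTCA) in capitals. For *Naa60* (a protein N-acetyltransferase of the Golgi), *Dxo* (an RNA decapping enzyme) and *Lias* (lipoic acid synthase), the complete interval between the gene start and the start of an opposite gene is shown, since these peaks covered both starts. The opposite genes are *Zfp597*, *Stk19* and *Rpl9*. The intervals were 57, 73 and 52 nt long, with a GC box and a CCAAT match in the first and no match in the other two.
Birc2 (chr9:7837065-7837201, minus strand): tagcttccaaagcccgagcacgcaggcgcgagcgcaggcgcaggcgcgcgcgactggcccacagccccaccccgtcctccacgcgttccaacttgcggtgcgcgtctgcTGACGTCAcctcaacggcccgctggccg
Naa60 (chr16:3884562-3884618, plus strand): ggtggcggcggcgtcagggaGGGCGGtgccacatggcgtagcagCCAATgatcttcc
Dxo (chr17:34836946-34837018, plus strand): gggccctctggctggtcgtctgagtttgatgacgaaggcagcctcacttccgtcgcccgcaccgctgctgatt
Lias (chr5:65391445-65391496, plus strand): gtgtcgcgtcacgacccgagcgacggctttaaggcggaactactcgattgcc

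The upstream peaks lay close to the start. Their centres were between 0.5 and 188.5 nt upstream of the TSS, with a median of 39.5 nt and quartiles of 21 and 62.5 nt. There were 168 peaks at 1-25 nt, 169 at 26-50 nt, 156 at 51-100 nt and 41 further than 100 nt. All 534 peaks reached the gene with their edge. In peaks that do so, a centre further than 100 nt upstream needs a peak wider than 200 nt, and the overlap with the gene body cannot exceed 0.5 of the peak. The fraction of overlap in the table, rounded to a single decimal, was 0 for 32 peaks, 0.1 for 69, 0.2 for 99, 0.3 for 125, 0.4 for 146 and 0.5 for 63. Among the 406 peaks without a gene, 168 had their centre within 500 nt upstream of a GENCODE M21 gene start, between 15 and 491.5 nt upstream with a median of 140 nt, and 24 of these 168 reached that gene with their edge. The members are thus not every Pol II pSer5 peak upstream of a start. Since all of them reached their gene, their closeness to the start is in part set by how peaks were assigned to genes.

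**Figure D1:**
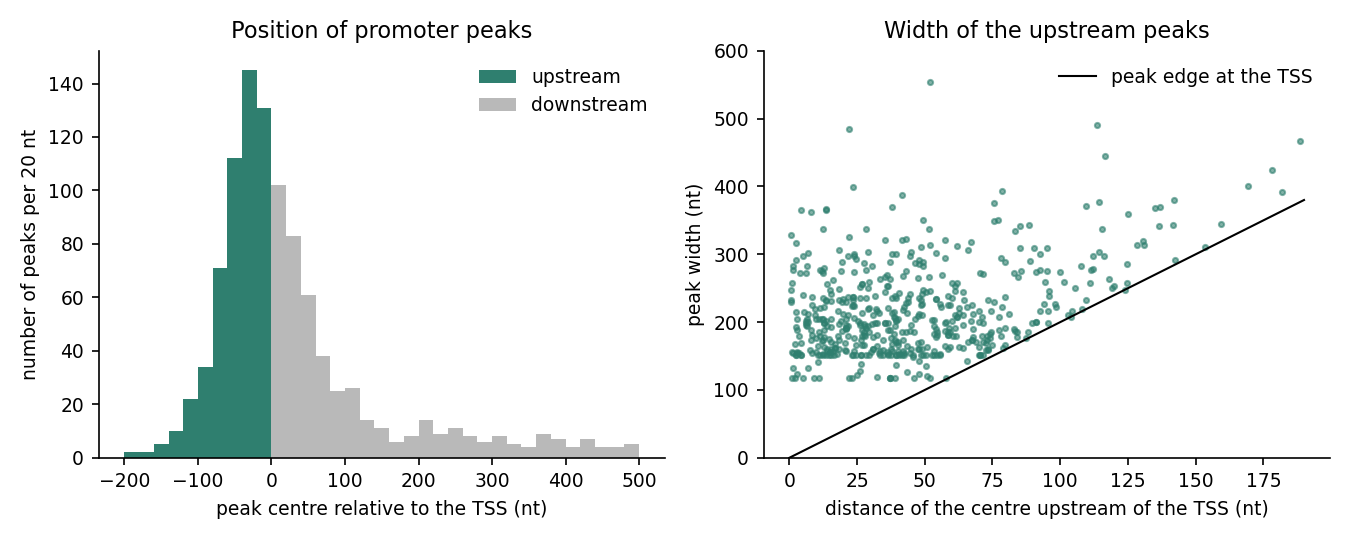
Left, number of promoter peaks per 20 nt against the position of the peak centre relative to the TSS in nt, for upstream peaks (green) and peaks centred 0 to 500 nt downstream (grey). Right, width against distance upstream for each of the 534 upstream peaks, where the line marks peaks whose edge falls on the TSS. All peaks lie on or above it, which limits how far upstream a centre can be (at most 188.5 nt here). The downstream end at 500 nt is set by the definition of that class.

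Some members sat almost on the limit. The peaks of *Klhdc2*, *Smarcc1*, *Vps52* and *Hint3* were centred 0.5 nt upstream of the TSS and that of *Ppp1r8* 1 nt upstream, with mean values over the 4 libraries of 17.25, 13, 19.75, 33.75 and 7. Just inside the gene, the peaks of *Plaa* (0 nt), *Cfap97*, *Chid1*, *Fbxw2* and *Emg1* (0.5 nt each) had mean values of 12.25, 9.5, 10.75, 10.75 and 28. The ranges on both sides of the limit overlapped. The limit itself depends on the annotation, since 392 of the 534 gene starts were identical in GENCODE M21. Measured from the nearest transcript start of the same gene in M21, 21 upstream peaks would lie at or inside the start, and 155 of the 479 downstream peaks would become upstream.

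The 6 members farthest from the TSS belonged to *Zfand5* (188.5 nt), *Atxn2l* (182 nt), *Ppp1r12a* (178 nt), *Brpf1* (169.5 nt), *Mir22hg* (159.5 nt) and *Khdrbs1* (153.5 nt). Atxn2l takes part in stress granules, Brpf1 is a subunit of a histone acetyltransferase complex, Khdrbs1 (Sam68) is an RNA-binding protein, and Mir22hg is the host RNA of miR-22. *Zfand5* had values of 20 and 19 in Ctrl against 28 and 19 in Tet3smKO:T, and *Brpf1* of 18 and 20 against 21 and 20. *Atxn2l* had 25 and 21 in Ctrl against 23 and 48 in Tet3smKO:T, and *Khdrbs1* 17 and 38 against 33 and 25, so that replicates of a genotype differed more than the genotypes did. In *Mir22hg* the Ctrl libraries (26 and 25) were above the Tet3smKO:T libraries (17 and 22).

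Level and width went together along these peaks. The narrowest quartile had a median width of 152 nt and a median value of 9, and the widest quartile a median width of 298 nt and a median value of 25.9, with values per 100 nt of width of 6.15 and 8.14. By distance, the median value was 13.9, 13.25, 14.25 and 22.75 from the nearest to the farthest class, with median widths of 196.5, 197, 202.5 and 303 nt. Per 100 nt, the 4 classes held 7.01, 6.78, 7.09 and 7.61, so the higher value of the farthest peaks moved with the width that their position requires. Across overlap classes, median values were between 13.25 and 16.25 without an order. These are descriptions over peaks of the same libraries.

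The 3 highest members were the chromosome 8 copies shown above. *Gm10060* on chromosome 8, from 19784520 to 19784838, gave 108 and 129 in Ctrl against 96 and 105 in Tet3smKO:T, the highest mean of all 1761 peaks. *2610005L07Rik*, from 20424689 to 20424978, had 72 and 76 in Ctrl against 78 and 83 in Tet3smKO:T, and *Gm21769*, from 20122174 to 20122397, had 61 and 59 against 52 and 47. A read from such near-identical copies can be placed at more than 1 position, and how the authors treated these reads was not given in the sources used here, so the share of each copy is uncertain. The table held 2 further peaks of this stretch of chromosome 8, in *Gm26804* and without a gene, with mean values of 31 and 62.25.

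Among the other members, *Mapkapk5* (chromosome 5, from 121545780 to 121546078) was highest, with 57 and 55 in Ctrl against 45 and 56 in Tet3smKO:T. *Mapk14*, which encodes p38α upstream of the Mapkapk5 kinase, had 44 and 44 in Ctrl against 39 and 34 in Tet3smKO:T. *Ppp1r12a* (chromosome 10, from 108161803 to 108162227) had 54 and 51 against 36 and 50, and *Nfat5* (chromosome 8, from 107293220 to 107293530) had 45 and 46 against 30 and 40. In *Mapk14*, *Ppp1r12a* and *Nfat5*, both Ctrl libraries were above both Tet3smKO:T libraries, by log2 fold changes of −0.27, −0.30 and −0.38 with standard errors of 0.21, 0.24 and 0.23, and none was called (adjusted p = 0.740, 0.741 and 0.716 from limma).

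Replicates of *Pcmtd1* (a protein repair methyltransferase-like gene) gave 40 and 48 in Ctrl against 38 and 40 in Tet3smKO:T. *Faf1*, a ubiquitin-binding adaptor of p97, gave nearly identical values of 40, 38, 40 and 40. *Stag1*, a cohesin subunit, had 32 and 46 against 37 and 42, and *Extl3*, a glycosyltransferase of heparan sulfate synthesis, 35 and 50 against 37 and 35. The genotypes overlapped in these 4 peaks. *Adam17*, the sheddase of TNF and EGFR ligands, had 39 and 43 in Ctrl against 36 and 22 in Tet3smKO:T, a gap set mainly by the second Tet3smKO:T library.

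**Figure D2:**
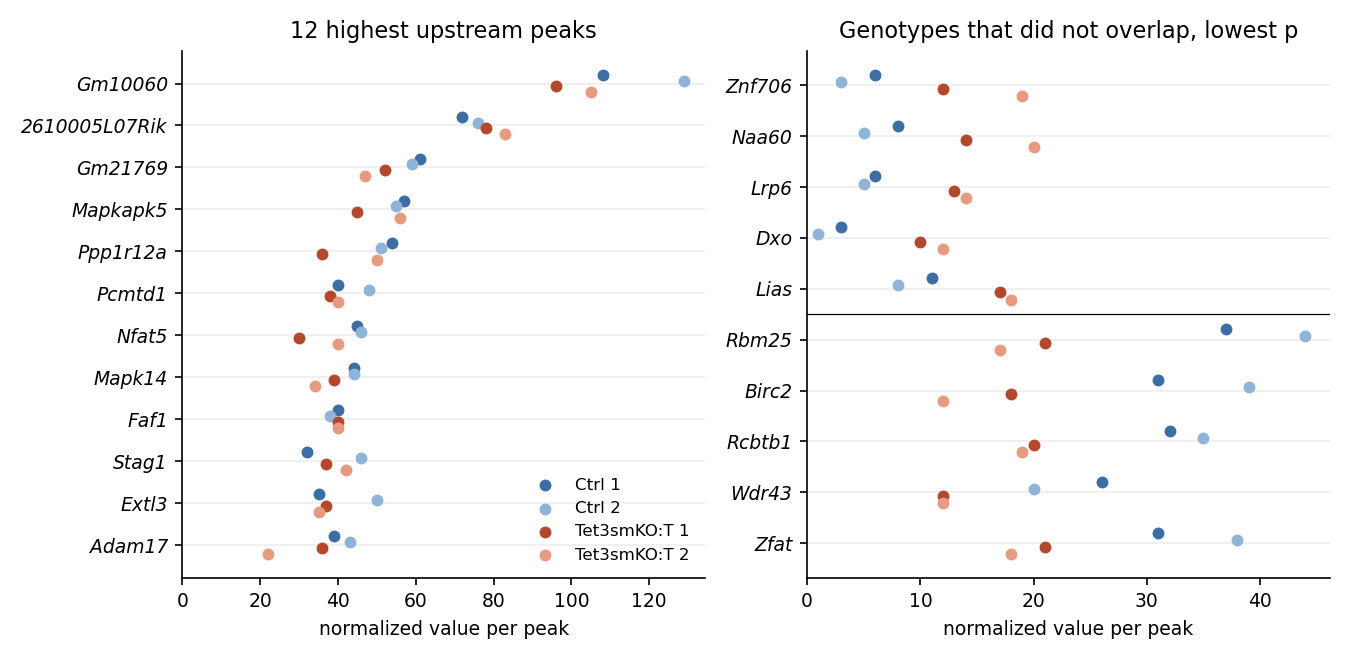
Normalized value per peak (horizontal axis) in each of the 4 libraries, 1 point per library, blue for Ctrl and red for Tet3smKO:T. Left, the 12 upstream peaks with the highest mean, where the peaks other than the chromosome 8 copies sit between 22 and 57; right, the 5 higher and 5 lower peaks with the lowest p among those whose genotypes did not overlap, separated by the line.

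The comparison of genotypes asked whether Pol II pSer5 at these positions differed after loss of *Tet3*. No upstream peak differed past the threshold. In limma's moderated test on log2(value + 1) across all 1761 peaks with Benjamini–Hochberg adjustment, 0 of the 534 upstream peaks and 0 of all peaks (0.0%) had an adjusted p-value under 0.05, with 0.681 as the lowest adjusted p-value. Before adjustment, at p under 0.05, 10 upstream peaks were higher in Tet3smKO:T, which is 1.87% of them beside 3.24% of all peaks, and 14 were lower, 2.62% beside 3.98% of all peaks. Leaving out 1 library at a time gave between 2 (without Tet3smKO:T replicate 2) and 34 (without Ctrl replicate 1) higher peaks and between 16 and 25 lower ones, and in these fits the genotype with 1 library was assumed to vary like the other. The counting model on estimated reads also called 0 upstream peaks. Both Tet3smKO:T libraries were above both Ctrl libraries in 68 upstream peaks (12.7%, beside 17.1% of all peaks) and below both in 99 (18.5%, beside 16.6% of all peaks).

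Over the 534 peaks the median log2 fold change was −0.05, beside −0.02 over all peaks and −0.02 over the downstream peaks, and 245 peaks were above 0. The deviation of each value from the mean of its peak had a median of 0.08 and −0.01 in the Ctrl libraries and −0.02 and 0.01 in the Tet3smKO:T libraries, so that Ctrl replicate 1 stood above the other 3 libraries. Without Ctrl replicate 1 the median log2 fold change was −0.02, and without Ctrl replicate 2 it was −0.11. The deposited values were already scaled so that the typical peak is equal in each library, and a change common to most peaks is removed by that scaling.

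Upstream peaks held 34.6% and 32.9% of the summed values in the Ctrl libraries and 32.9% and 33.2% in the Tet3smKO:T libraries. The means were 33.7% ± 1.2 (SD, n = 2) and 33.0% ± 0.17 (SD, n = 2), with overlapping ranges (exact two-sided permutation test, p = 1; the smallest p that 2 against 2 libraries allow is 0.333). Median values of upstream peaks were 15 and 14 in Ctrl, and 14 in both Tet3smKO:T libraries. Downstream peaks had a median of 14 in each library, which gave log2 ratios of 0.10, 0, 0 and 0 (exact permutation test, p = 1). With means in place of medians, a choice made after the data were seen, the log2 ratio was 0.09 in both Ctrl libraries, and 0.06 and 0.05 in the Tet3smKO:T libraries (exact permutation test, p = 0.333, the smallest possible).

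The 5 higher upstream peaks with the lowest p, among those whose genotypes did not overlap, belonged to *Znf706*, *Naa60*, *Lrp6*, *Dxo* and *Lias*, and their Ctrl values were between 1 and 11. *Znf706* (chromosome 15, from 37007344 to 37007525), a small zinc-finger gene, gave 6 and 3 in Ctrl against 12 and 19 in Tet3smKO:T. This is a log2 fold change of 1.61 with a standard error of 0.46 (adjusted p = 0.681 from limma). *Naa60* had 8 and 5 against 14 and 20, and *Lrp6*, which encodes a Wnt co-receptor, 6 and 5 against 13 and 14. *Dxo* had 3 and 1 against 10 and 12, and *Lias* 11 and 8 against 17 and 18. Their log2 fold changes were 1.27, 1.16, 2.08 and 0.83, and none was called (adjusted p = 0.681 for each). Peaks with Ctrl values this low may be in the table only because they were called in Tet3smKO:T.

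The 5 lower upstream peaks chosen in the same way belonged to *Rbm25*, *Birc2*, *Rcbtb1*, *Zfat* and *Wdr43*, and their Ctrl values were between 20 and 44. Non-overlapping peaks of both directions occurred in each quartile of the level, described next. *Rbm25* (chromosome 12, from 83632034 to 83632346), a splicing regulator, had 37 and 44 in Ctrl against 21 and 17 in Tet3smKO:T. This is a log2 fold change of −1.06 with a standard error of 0.25 (adjusted p = 0.681 from limma). *Birc2* (chromosome 9, from 7836967 to 7837201) had 31 and 39 against 18 and 12, with a log2 fold change of −1.19 with a standard error of 0.30. Both also had the lowest adjusted p-values of upstream peaks in the counting model, 0.076 and 0.084. *Rcbtb1* had 32 and 35 against 20 and 19, *Zfat*, a zinc-finger gene, 31 and 38 against 21 and 18, and *Wdr43*, a ribosome biogenesis factor, 26 and 20 against 12 and 12. The choice of these peaks fixed that their genotypes were apart, and none passed the adjustment over all peaks.

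Genotype values differed along the range of levels. In the lowest quartile of upstream peaks, with mean values up to 10.5, the median log2 fold change was 0.08. There, 32 peaks were higher (23.19%) and 15 lower (10.87%) without overlap, beside 17.1% and 16.6% of all peaks. Weak peaks may have entered the table through the genotype where they were high. This can raise such counts at low levels, and its part in them was not tested. The median log2 fold change was 0.02 in the second quartile, −0.08 in the third and −0.11 in the highest (mean values of 20.2 and above). In that highest quartile 11 peaks were higher (8.21%) and 36 lower (26.87%) without overlap. Downstream peaks within the same limits had medians of 0.09, −0.06, −0.02 and −0.05. At the lowest level 29 downstream peaks were higher (22.14%) and 14 lower (10.69%) without overlap. At the highest level 12 were higher (11.43%) and 22 lower (20.95%), so upstream and downstream counts tilted the same way. The median value of the highest upstream quartile was 27 and 28 in the Ctrl libraries, and 23 and 28 in the Tet3smKO:T libraries. Without Tet3smKO:T replicate 1, the library with the most estimated reads, the median log2 fold change of the highest quartile was −0.01 and that of the lowest quartile −0.10. The order along the levels rested on that library and on the normalization, since with quantile normalization the 4 medians were −0.02, 0.05, −0.02 and −0.03.

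**Figure D3:**
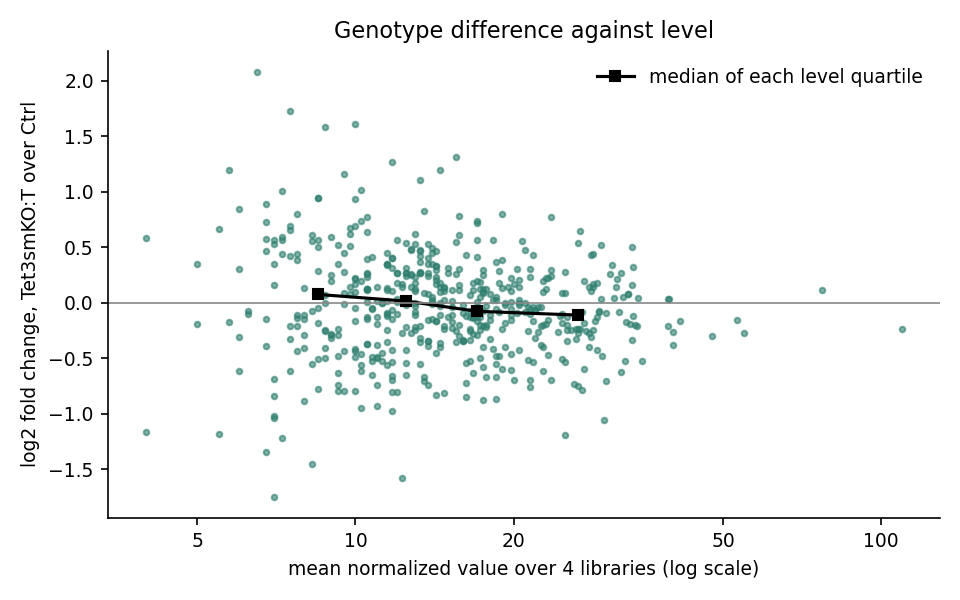
Log2 fold change of Tet3smKO:T over Ctrl against the mean normalized value over 4 libraries (log axis), 1 point per upstream peak (n = 534). Black squares give the median of each level quartile, from 0.08 in the lowest to −0.11 in the highest, small beside the scatter of single peaks.

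By position, the median log2 fold change was −0.07 at 1-25 nt, −0.08 at 26-50 nt, −0.02 at 51-100 nt and 0.07 beyond 100 nt. By width quartile it was −0.11, 0.01, −0.05 and −0.05 from narrow to wide. By overlap with the gene body it was between −0.14 and 0.00 without an order. Without overlap of the genotypes, 20 peaks were higher and 28 lower at 1-25 nt, 27 and 36 at 26-50 nt, 16 and 27 at 51-100 nt, and 5 and 8 beyond 100 nt. The higher ones were at most 16% of a class (17.1% of all peaks) and the lower ones between 16.7% and 21.3% (16.6% of all peaks). At an unadjusted p under 0.05 the counts were 3 higher and 2 lower at 1-25 nt, 6 and 4 at 26-50 nt, 1 and 7 at 51-100 nt, and 0 and 1 beyond 100 nt, so the direction in the first 2 classes differed between the counts.

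A gene of the opposite strand started within 500 nt of the centre in 131 upstream peaks (24.5%), beside 163 downstream peaks (34.0%) and 58 intragenic peaks (17.0%). Of the 131, 65 had a protein-coding partner and 66 another kind of gene, such as a lincRNA, an antisense RNA or an RNA annotated from a bidirectional promoter. In 112 of them the opposite start lay on the far side of the centre, so that the centre was between both starts, and over all 131 the opposite start lay at a median of 120 nt upstream of the TSS. Some of the strongest examples were *Fam35a* with *Glud1* (glutamate dehydrogenase), at values of 34 and 26 in Ctrl against 41 and 34 in Tet3smKO:T, and *Adam17* with a bidirectional noncoding RNA. The median value was 14.25 both with and without an opposite start.

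The median log2 fold change was 0.09 in the 131 upstream peaks with an opposite start and −0.09 in the 403 without. Among the former 26 were higher and 19 lower without overlap of the genotypes, and among the latter 42 and 80, beside 17.1% and 16.6% of all peaks. The first median was 0.02 without Tet3smKO:T replicate 2, 0.03 without Ctrl replicate 1, 0.05 without Ctrl replicate 2 and 0.01 in the upper 75% of peaks. The second was −0.04 without Ctrl replicate 1 and −0.14 without Ctrl replicate 2. With quantile normalization the medians were 0.05 and −0.02. Over all 11 fits they kept their signs, but these fits share the same libraries. Per library, the median deviation from the mean of the peak with an opposite start minus that without was −0.12 and −0.03 in Ctrl, against 0.05 and 0.08 in Tet3smKO:T. The genotypes did not overlap (exact permutation test, p = 0.333, the smallest that 2 against 2 libraries allow). In downstream peaks the medians were −0.05 with and −0.01 without an opposite start, the other way around. The sign of this downstream difference was not stable, and it was above 0 in 3 of the 11 fits. Without Ctrl replicate 1 the downstream medians were 0.04 with and −0.06 without an opposite start. This split of the fold changes was made after the data were seen.

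**Figure D4:**
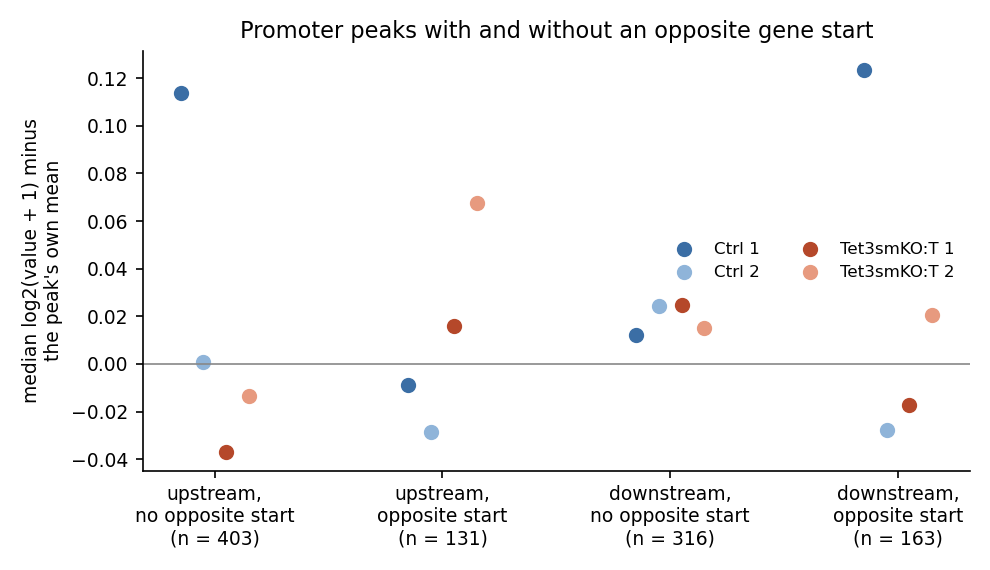
Median over peaks of log2(value + 1) minus the mean of the same peak over 4 libraries, for upstream and downstream promoter peaks with and without an opposite gene start within 500 nt, 1 point per library. In upstream peaks with an opposite start both Tet3smKO:T libraries are above both Ctrl libraries, in upstream peaks without one they are below, and in downstream peaks the genotypes overlap.

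The sequence under the upstream peaks was rich in CpG. In a window of 200 nt around the centre, the median GC content was 68% and the median number of CpG 21, with an observed over expected ratio of 0.95. The same values were 69.5%, 23 and 0.97 in downstream peaks, 61.5%, 9.5 and 0.62 in intragenic peaks, and 57.5%, 9 and 0.57 in windows placed 40 nt upstream of all 21938 protein-coding gene starts. The ratio was 0.6 or higher in 519 upstream peaks (97.2%), 97.3% of downstream peaks and 47.8% of all starts. The 15 exceptions included *Gm29328*, a predicted gene, with a mean value of 4 (from values of 9, 3, 3 and 1). This was the lowest mean value of the upstream peaks and was shared with another peak. They also included *Tbx3*, with a ratio of 0.59 and a mean value of 30.

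Motif letters were searched on both strands of the same windows. A GC box (GGGCGG, bound by Sp and Klf factors) was found in 344 upstream peaks (64.4%), 64.3% of downstream peaks and 39.9% of all starts. The ETS motif CCGGAAGT was found in 83 upstream peaks (15.5%), 14.2% of downstream peaks and 4.33% of starts, NRF1 (GCGCATGCG) in 7.30%, 7.72% and 1.90%, and YY1 (AAGATGGCG) in 5.06%, 5.01% and 1.52%. The CCAAT box, bound by NF-Y, was found in 105 upstream peaks (19.7%), 12.1% of downstream peaks and 30.2% of starts. The TATA box letters TATAAA were rare, in 7 upstream peaks (1.31%), 1.25% of downstream peaks and 8.26% of starts. So were AP-1 letters (TGANTCA), in 1.69%, 1.46% and 4.34%. No upstream window held the CArG box of serum response factor, beside 0.418% of downstream peaks and 0.948% of starts. The windows at all starts had a lower median GC content (57.5% beside 68%), and the part of base composition in these shares was not tested. E2F (TTCCCGCC), CRE (TGACGTCA), the E box CACGTG and ZNF143 (ACTACAATT) were found in 3.56%, 3.37%, 8.05% and 0.562% of upstream peaks, beside 2.20%, 2.19%, 5.93% and 0.378% of starts. E2F and GC box letters overlapped in 11 places, and the other pairs of motifs in at most 4.

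Matches lay at different places relative to the TSS. CCAAT matches had a median position of −71 nt and 91.9% of them lay upstream of the TSS, GC boxes had a median of −45.5 nt, and ETS matches a median of −15 nt with 65.2% upstream. Windows around an upstream centre hold more sequence before the start than after it. Windows around a downstream centre reach less far upstream, and the part of this in the share of CCAAT was not tested. A match is only a run of letters and shows no binding.

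**Figure D5:**
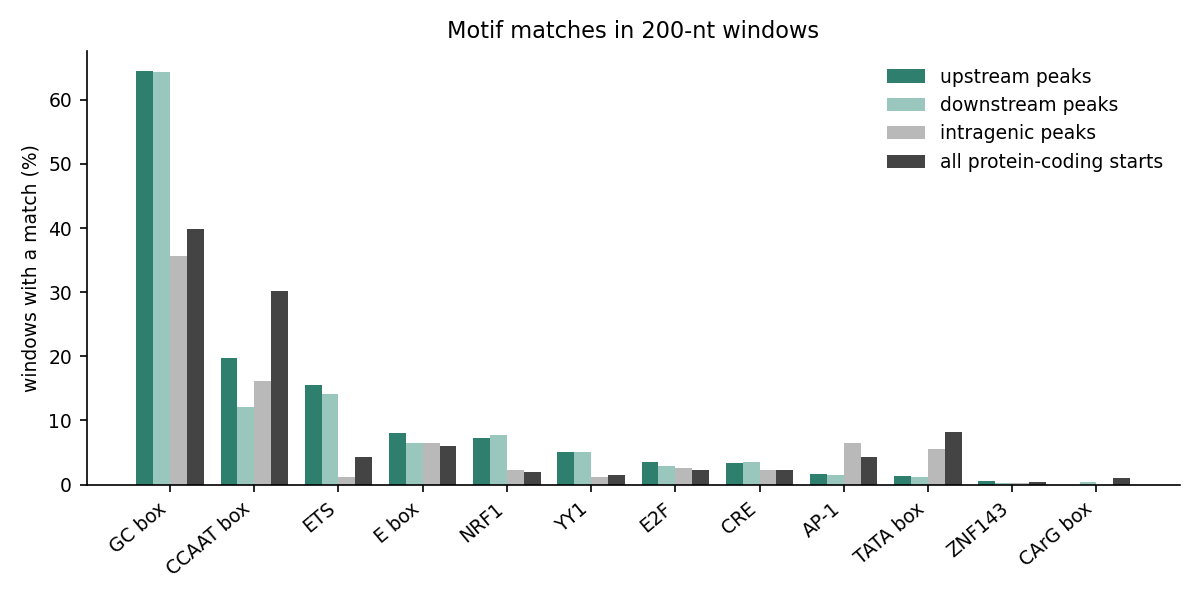
Share of 200-nt windows with at least 1 match to each motif, in percent, for upstream, downstream and intragenic peaks and for all protein-coding starts. GC box, ETS, NRF1 and YY1 matches were more frequent in upstream and downstream peaks than at all starts, and CCAAT, TATA and AP-1 matches less frequent.

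Among 16 lists of genes by function, which were matched by symbol, the largest was RNA processing, with 24 upstream peaks out of 39 peaks in the table and 13 downstream. By the pathway terms of the table, which 199 upstream and 167 downstream peaks carry, metabolic pathways had 36 upstream and 32 downstream peaks, the spliceosome 20 and 6, endocytosis 17 and 13, regulation of the actin cytoskeleton 13 and 4, the ribosome 13 and 11, and MAPK signaling 10 and 2. Terms with fewer upstream than downstream peaks included Huntington's disease (11 and 13) and PI3K-Akt signaling (9 and 11). These counts are descriptions of where peaks fell. No list had a member called by limma. The counts of higher and lower peaks in the lists that follow are of peaks without overlap of the genotypes, and stand beside 12.7% higher and 18.5% lower among all upstream peaks, and 17.1% and 16.6% among all peaks.

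Of the 24 RNA processing peaks, 2 were higher (8.33%) and 3 lower (12.5%) without overlap, both below the shares over all peaks (median log2 fold change 0.09). The strongest were *Rbm33* (33 and 31 in Ctrl, 37 and 31 in Tet3smKO:T) and *Rbm25*, described above. Of the 20 spliceosome peaks, 3 were higher and 2 lower, including *Smndc1* with 19 and 24 in Ctrl against 29 and 34 in Tet3smKO:T. Of 18 peaks of mitochondrial genes 3 were higher and 2 lower, led by *Tomm20*, an outer membrane import receptor (43 and 31 against 33 and 30), and *Slc25a32*, a mitochondrial carrier (35 and 24 against 21 and 36).

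Of 14 peaks in the list of ribosomal proteins and translation factors, which also catches the kinase genes *Rps6kb1* and *Rps6kb2* by their symbols, 1 was higher and 1 lower without overlap. They were the 2 strongest, *Rps12* (20 and 28 against 35 and 30), a ribosomal protein gene, and *Eif4b* (29 and 29 against 22 and 26), an initiation factor. Of 14 ubiquitin and proteasome peaks, 1 was higher and 5 lower (35.7% beside 16.6% of all peaks, median log2 fold change −0.27), and none had an unadjusted p under 0.05. Among them were *Ube3a*, a ubiquitin ligase, at 27 and 49 against 24 and 20, and *Usp8*, a deubiquitinase, at 25 and 35 against 21 and 29. Of 5 chaperone peaks, too few to compare with the 16.6% of all peaks, 2 were lower and 0 higher, among them *Hspa4* with 35 and 43 in Ctrl against 22 and 28 in Tet3smKO:T, whereas *Cct8* had 24 and 29 against 23 and 37.

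Vesicle traffic had 10 upstream peaks (1 higher, 2 lower), led by *Sec31a*, a COPII coat subunit (37 and 24 against 25 and 38), and *Vps52*, a tethering factor subunit (12 and 30 against 21 and 16). The Pol II machinery and chromatin list had 10 (0 higher, 1 lower), led by *Smarca2*, a SWI/SNF ATPase (19 and 25 against 18 and 25), and *Med17* of the Mediator complex (16 and 20 against 17 and 17). Cell cycle and DNA repair had 10 (3 higher, 1 lower), led by *Cdc42bpb*, a cytoskeletal kinase that the list catches by its symbol (27 and 30 against 25 and 23), and *Rad9b*, a checkpoint clamp paralog (15 and 4 against 18 and 25). Zinc-finger genes had 8 (1 higher, 1 lower), with *Zfp317* at 20 and 21 against 17 and 34 and *Zfp568* at 18 and 20 against 21 and 23. Predicted and noncoding genes had 18 (4 higher, 5 lower), led by the chromosome 8 copies.

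The list of contractile genes had only 3 peaks in the table (*Tpm1*, *Vcl* and *Actn1*), and all were intragenic. By pathway term, vascular smooth muscle contraction had 4 upstream peaks (*Ppp1r12a*, *Calm3*, *Arhgef12* and *Prkacb*), with 0 higher and 1 lower without overlap. Focal adhesion had 8, with 1 higher and 4 lower and a median log2 fold change of −0.24. The 13 upstream peaks of actin regulation included *Ppp1r12a*, *Wasl*, an activator of the Arp2/3 complex (14 and 28 in Ctrl, 24 and 16 in Tet3smKO:T), and the Arp2/3 subunits *Arpc2* (16 and 13 against 8 and 20), *Arpc5l* (18 and 6 against 17 and 8) and *Arpc1a* (7 and 6 against 11 and 7). Of the 13, 1 was higher and 2 were lower without overlap, with a median log2 fold change of 0.02. The 10 MAPK peaks had 1 higher and 4 lower (beside 17.1% and 16.6% of all peaks) and a median of −0.21, and besides *Mapkapk5* and *Mapk14* they included *Map2k4*, which activates JNK and p38 (22 and 28 against 14 and 16, log2 fold change −0.69, adjusted p = 0.681 from limma).

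The remaining lists were almost empty upstream. *Map3k7* (TAK1), a kinase downstream of Toll-like receptors, had 30 and 24 in Ctrl against 29 and 32 in Tet3smKO:T at 125 nt upstream of its TSS. *Nsd3*, an H3K36 methyltransferase, had 17 and 10 against 8 and 14, and it was 1 of 7 upstream genes with a further peak of another class. Both genotypes overlapped in these peaks. Histone genes, immediate early genes and markers of other cell types had 0 upstream peaks.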

How the data were processed

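Pol II pSer5 ChIP–seq was performed on sorted lung SMCs, with 2 immunoprecipitated libraries per genotype. Sample titles gave the genotype and the replicate number. The 4 input samples are not part of the table and are not analysed here. All columns of library values were used (0 unused).

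The authors trimmed and deduplicated single-end reads, called peaks with MACS2, removed blacklisted regions, unified and recounted the peaks, subtracted input and normalized with DESeq2. The submitters' processing notes name FastQC, Trimmomatic 0.36, Picard 2.17.10, MACS2, DESeq2 and mm10 (GRCm38). The aligner for this experiment and the base from which peak starts are counted were not given in the sources used here. The deposited value of a peak in a library is a score: reads after normalization, rounded to whole numbers, and not raw counts. The overlap with the gene body is a fraction that the authors gave to a single decimal.

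Genotypes were compared in limma 3.58.1 (R 4.3.3, lmFit and eBayes with trend) on log2(value + 1). The fit held all 1761 peaks, p-values were adjusted by Benjamini–Hochberg, and the threshold was 0.05. The design had allowed for raw counts, but the values were normalized. Adding 1 makes fold changes of low peaks too small. The test was tried on simulated data with large known changes and pure counting noise. The spread in the deposited values was above counting noise, so this trial does not show how small a change could be called in them. Values per library were compared by exact permutation tests. Sequences were read with pysam 0.24.0 from GRCm38 (RefSeq) and aligned with Biopython 1.88. Starts of opposite genes and 18 gene names missing in the table came from GENCODE M21. Other steps used Python 3.11.15, scipy 1.17.1, numpy 2.4.6, pandas 2.3.3 and matplotlib 3.10.9. For estimated reads, values were divided by a factor per library (0.91, 1.25, 0.69 and 1.2), and precision stated from them covers counting error only.

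The members, gene lists and motifs were chosen with earlier results of these data known. Peaks were named by rule: the 12 highest, the 6 farthest from the TSS, 5 on each side of the TSS, the 2 highest per list, 5 higher and 5 lower with the lowest p among peaks whose genotypes did not overlap, and all members of the contractile, other cell type, immediate early, Toll-like receptor and DNA methylation lists. Other peaks were named after their values were seen. Alternatives were another pseudocount, only the stronger peaks, quantile normalization, scaling to the library total, a replicate block, a counting model, the transcript start, a minimum distance, the value per width, and each library left out in turn.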

Additional observations from a re-analysis of the deposited data

How the results depend on the processing

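No upstream peak was called under any alternative of pseudocount, filter, quantile normalization, scaling by the total, counting model or left-out library, although scaling by the total called 6 and the counting model 5 of all peaks. The median log2 fold change of the upstream peaks stayed below 0, between −0.06 and −0.01, and ranged from −0.106 (without Ctrl replicate 2) to −0.0223 (without Ctrl replicate 1) with each library left out in turn. In the upper 75% of peaks it was equal to that of all peaks (−0.04). The share of summed values was lower in Tet3smKO:T by 0.682 percentage points, but 0.187 points higher without Ctrl replicate 1 (range with each library left out −1.55 to 0.187). The log2 ratio of upstream over downstream medians differed by −0.05 between genotypes (−0.10 to 0 with each library left out), and by 0.0037 with the nearest transcript start. The cause was not tested. With the replicate number as a block, the median log2 fold change was −0.05 and 0 upstream peaks were called, with 4 higher and 8 lower at an unadjusted p under 0.05 in place of 10 and 14. The deviations of same-numbered libraries had a correlation of −0.07, so the numbers give no sign of pairing. Leaving out the 3 chromosome 8 copies, a choice made after the data were seen, gave −0.05, −0.621 points and −0.05. With 2 libraries per genotype and a median normalized value of 14 or 15 per library, changes that are not large could have been missed.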

Other observations

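Among the 12 motifs searched, the 18 upstream peaks with a CRE (TGACGTCA, the letters bound by CREB and ATF factors) had the lowest median log2 fold change, −0.35. In 15 of them the value was below 0, and 1 was higher (5.56%) and 6 lower (33.3%) without overlap of the genotypes, beside 12.7% and 18.5% of all upstream peaks. They included *Birc2*, *Rap1b*, a small GTPase of adhesion signaling (13 and 11 in Ctrl against 6 and 7 in Tet3smKO:T), and *Clptm1l* (34 and 34 against 18 and 32). Against these stood *Ccnl1*, a cyclin of splicing regulation, with 9 and 6 in Ctrl against 12 and 13 in Tet3smKO:T. Over the 18 peaks, the median value was 13 and 11 in Ctrl against 12.5 and 10 in Tet3smKO:T, so the genotypes overlapped. The median deviation from the mean of the peak was 0.30 and 0.08 in Ctrl, against 0.01 and −0.25 in Tet3smKO:T. The median log2 fold change was below 0 in all 11 fits, between −0.48 and −0.19, but these fits share the same libraries. The 17 downstream peaks with the same letters had a median of 0.08, with 9 above 0, and the 8 intragenic peaks a median of −0.07, with 7 below 0. The 4 such peaks without a gene had a median of 0.28, with 3 above 0. The motif was singled out after its values were seen, and no test was made.

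In the same 11 fits, the median log2 fold change of upstream peaks with an opposite gene start exceeded that of peaks without one by 0.07 to 0.19. For downstream peaks this difference was between −0.05 and 0.10, and above 0 in 3 fits. Both classes share the libraries, and the difference between them was not tested.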
